A study of Mus musculus with 9 samples.

Results

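A set of 10 genes that hepatocytes around the central vein keep switched on through Wnt signaling was followed in whole livers of mice with and without hepatocellular carcinoma (HCC). They are Glul, Oat, Lgr5, Axin2, Rhbg, Tbx3, Rnf43, Znrf3, Lect2 and Sp5, chosen by name from 55401 deposited genes, and all 10 were among the 15717 genes that passed the filter on low counts. RNA was sequenced from 9 livers of female wild-type mice, in 3 groups of 3. The growth protocol gives an age of 6 weeks at the start for the mice of all groups. The healthy livers received no treatment, and no harvest time is given for them. The mice of both HCC groups received RAS/AKT, activated NRAS and AKT carried into hepatocytes by sleeping beauty transposon plasmids in a hydrodynamic tail vein injection. At week 1 they received a single dose of an adeno-associated virus of serotype 8 (AAV8), either a blank vector (untreated HCC) or one carrying miR-22 (miR-22-treated HCC). Both HCC groups were harvested at week 5, 4 weeks after the virus. The miR-22 vector used the CMV promoter, which is not restricted to hepatocytes, and each sample was liver tissue, from which no cell type was sorted. For the strain, the labels list C57BL/6 among the sample characteristics, whereas the growth protocol and the design text state FVB/N. Their shared protocol also lists a plasmid for N90-β-catenin, an activated form of the Wnt effector, which the study used in a second HCC model. The series' design text names RAS/AKT alone for the sequenced livers.

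Wnt ligands and R-spondins made by endothelial cells of the central vein reach the adjacent hepatocytes. There they stabilize β-catenin, which enters the nucleus, binds TCF/LEF factors and turns on the pericentral program. That program includes ammonia capture into glutamine, and it also includes feedback genes that tune the pathway itself. Hepatocytes at the opposite, periportal end of the lobule run the urea cycle and gluconeogenesis. Liver tumors with activated β-catenin are known for high levels of several of these genes.

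The mature miRNA delivered by the vector is shown first, because the comparison of the HCC groups turns on it. In RefSeq the mature sequence of mouse miR-22-3p lies at chr11:75463772-75463793 on the plus strand of GRCm38.p6. Capitals mark the seed, bases 2 to 8, which pairs with targets.
mmu-miR-22-3p: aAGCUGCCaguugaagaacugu

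The reverse complement of that seed, GGCAGCT, was searched in the longest annotated 3′ end of each member (GENCODE M39, GRCm39), and 2 of the 10 held it. The Rnf43 site lies at chr11:87626077-87626083 on the plus strand, and the Tbx3 site at chr5:119821920-119821926 on the plus strand. Both are in the 3′ untranslated region and are printed with their flanks, the match in capitals.
Rnf43: aagttggcccgGGCAGCTtgtaccacgtg
Tbx3: ggggtaaaaggGGCAGCTatgggcatgaa
Of 13662 tested genes with a coding transcript, 20.4% held the same 7 letters. A match is a description of the sequence, not evidence of a working site.

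The members are named for their dependence on Wnt, so promoters were searched on both strands for forms of the TCF/LEF motif, namely the letters CTTTGAA or CTTTGAT, as well as CTTTGTA or else CTTTGTT. RefSeq promoter windows, 250 bases before to 50 after the start of the gene (GRCm38.p6), were at hand for 6 members: Glul, Oat, Axin2, Rnf43, Lect2 and Sp5. Lect2 held 1 match, 32 bases before the start, and Sp5 held 2, at 222 and 104 bases before it. The Lect2 stretch lies at chr13:56548549-56548585 on the minus strand and the Sp5 stretch at chr2:70474686-70474840 on the plus strand, with the matches in capitals.
Lect2: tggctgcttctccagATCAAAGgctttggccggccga
Sp5: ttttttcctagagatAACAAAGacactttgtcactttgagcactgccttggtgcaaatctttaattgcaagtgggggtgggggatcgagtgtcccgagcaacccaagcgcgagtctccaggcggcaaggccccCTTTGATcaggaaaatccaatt
Of 32851 windows of this length, 16.9% held such a match, and of the 27025 genes with a window, 18.9% held it in at least 1.

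Library totals ranged from 18258660 to 20964551 counts for the healthy group, from 18293676 to 23908392 for the untreated group and from 16664659 to 20459853 for the treated group. Levels below are TMM-normalized counts, that is, counts scaled so that libraries can be compared, and errors are SD over 3 livers. They are not divided by gene length, so normalized counts are compared between livers and not between genes. Fold changes came from edgeR's quasi-likelihood test fitted on all tested genes, with the standard error (SE) and the Benjamini-Hochberg adjusted p. A gene was called where the adjusted p was under 0.05 and the fold change over 1.5. The label checks Akt1 and Nras, the mouse genes of the injected oncogenes, were higher in untreated HCC than in healthy livers by 3.82 and 1.29 on the log2 scale, both called. Both also moved between the HCC groups. Akt1 measured 31315, 32454 and 22700 normalized counts in untreated HCC and 15472, 13027 and 21424 with miR-22, and was called lower with miR-22 (log2 −0.79, adjusted p = 0.00786). Nras was lower by adjusted p alone (−0.36, adjusted p = 0.0129). The lowest untreated and the highest treated Akt1 values were those of replicate 4 in each group. Their part in the members' values was not tested. Of the mean effective library size of 19401057 counts, 5 hepatocyte markers including albumin together held 1487736 to 2704128 in each liver.

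Untreated HCC was first compared with healthy livers, which asks how the pericentral Wnt program differed in livers with tumors. The injection of plasmids, the blank virus and the tumors cannot be told apart here, because the healthy mice received none of them. All 10 members had a mean below that of healthy livers, and 4 were called lower: Glul, Oat, Lgr5 and Lect2. No member was called higher by edgeR or by DESeq2, and at an unadjusted p under 0.05 the counts were 0 higher and 5 lower. Over all tested genes, 18.1% were called lower and 22.7% higher. The median log2 fold change of the members was −0.66, beside 0.01 over all tested genes. The groups did not overlap for 7 of the 10 members, against 65.3% of all tested genes. In bulk tissue, fewer cells of a type and less RNA per cell cannot be told apart.

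**Figure D1:**
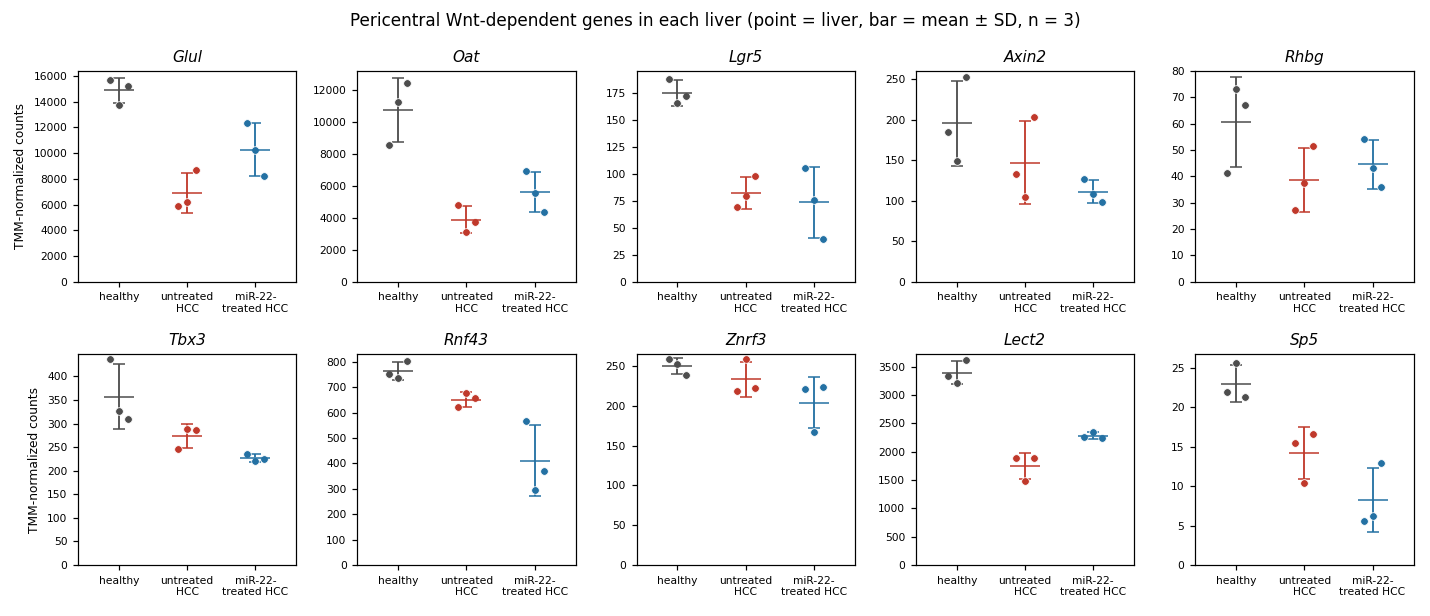
TMM-normalized counts (vertical axis, from 0) of each member in each liver, by group. Points are livers and bars are the mean ± SD of 3 livers. In Glul, Oat, Lgr5 and Lect2, the livers with untreated HCC lay below every healthy liver, whereas those of Axin2, Rhbg and Znrf3 overlapped.

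Glul encodes glutamine synthetase, which captures ammonia and is the classical marker of the hepatocytes next to the central vein (chr1:153775690-153785469, plus strand, GRCm39). It measured 15688, 13748 and 15185 normalized counts in healthy livers, 5883, 6171 and 8666 in untreated HCC, and 12341, 10220 and 8238 in miR-22-treated HCC. Every HCC liver was below every healthy liver, and the highest untreated liver lay above the lowest treated one. From healthy livers to untreated HCC, Glul fell 2.15-fold (log2 fold change −1.11, SE 0.17, adjusted p = 1.3e-04). With miR-22 its mean was 1.49-fold that of untreated HCC (log2 0.57, SE 0.17, adjusted p = 0.0288), just under the fold threshold. It was called without miR-22-treated replicate 4 (0.71) or without untreated replicate 4 (0.77). Its mean in treated livers, 10266 ± 2052, was still 1.45-fold below the healthy mean of 14874 ± 1007 (adjusted p = 0.0268). That difference also missed the fold threshold, but passed it without miR-22-treated replicate 2 (log2 −0.70) or healthy replicate 2 (−0.60).

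Oat encodes ornithine aminotransferase, which feeds glutamate to glutamine synthetase and is transcribed from the minus strand at chr7:132159153-132191517. Its healthy livers measured 8556, 11258 and 12427 normalized counts, untreated HCC 4797, 3149 and 3716, and miR-22-treated HCC 6909, 5584 and 4371. No HCC liver reached a healthy one, and the HCC groups overlapped by a single pair of livers. It had the largest fall of the 10 members in untreated HCC, 2.76-fold (log2 −1.47, SE 0.20, adjusted p = 4e-05). The difference between treated and untreated HCC was 0.53 on the log2 scale (SE 0.19, adjusted p = 0.0652) and was not called. It was called without miR-22-treated replicate 4 (0.68) or without untreated replicate 2 (0.71). Treated livers remained 1.91-fold below healthy ones (adjusted p = 0.00252).

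Lect2 encodes a hormone-like protein secreted by hepatocytes and known as a target of β-catenin in liver (chr13:56684477-56696569, minus strand). The healthy livers held 3343, 3216 and 3616 normalized counts, the untreated ones 1882, 1486 and 1884, and the treated ones 2257, 2351 and 2245. Lect2 separated all 3 groups without overlap, with the treated livers in the middle. It was 1.94-fold lower in untreated HCC (log2 −0.95, SE 0.10, adjusted p = 6.96e-06). The mean with miR-22 was 1.30-fold that of untreated HCC (log2 0.38, SE 0.10, adjusted p = 0.0182), past the p threshold and short of the fold threshold. Against healthy livers, the treated livers were 1.48-fold lower (adjusted p = 0.00104), where 7 of 19 alternative settings changed the call.

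Rhbg encodes an ammonium transporter of the basolateral membrane of pericentral hepatocytes (chr3:88150181-88162043, minus strand). It had 30 to 71 raw counts a liver. It measured 41.5, 73.3 and 67.2 normalized counts in healthy livers, 27.3, 37.4 and 51.5 in untreated HCC, and 54.4, 43.3 and 35.99 in miR-22-treated HCC. All 3 groups overlapped. The difference between untreated HCC and healthy livers was −0.64 on the log2 scale with a 95% confidence interval from −1.31 to 0.03 (adjusted p = 0.0963). It was called without healthy replicate 1 (−0.86) or without untreated replicate 4 (−0.91). The treated livers differed from untreated HCC by 0.19 (interval −0.49 to 0.87), which turned to −0.043 under scaling by total counts alone and to −0.0050 without untreated replicate 2. Both intervals include 0.

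Lgr5 encodes a receptor for R-spondins, marks the hepatocytes closest to the central vein and is itself a Wnt target (chr10:115286216-115423685, minus strand). Its normalized counts were 188, 165 and 172 in healthy livers, 69.1, 79.1 and 97.8 in untreated HCC, and 105, 75.5 and 39.7 in miR-22-treated HCC. The 6 HCC livers all lay below the 3 healthy ones, and the treated livers spanned the range of the untreated ones. Lgr5 was 2.12-fold lower in untreated HCC (log2 −1.09, SE 0.27, adjusted p = 0.00460) and 2.40-fold lower in treated HCC (log2 −1.26, SE 0.28, adjusted p = 0.00405). Between the HCC groups it differed by −0.17 on the log2 scale (interval −0.80 to 0.45, adjusted p = 0.705), a sign that turned (0.14) without miR-22-treated replicate 4. Its spread among treated livers, 44.8% of the mean, was exceeded among the members by that of Sp5 alone (49.7%).

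Rnf43 and Znrf3 encode related ubiquitin ligases that remove Frizzled receptors from the cell surface and so dampen Wnt signaling. Both are themselves Wnt targets. Rnf43 (chr11:87553548-87626377, plus strand) measured 751, 736 and 804 normalized counts in healthy livers, 620, 676 and 658 in untreated HCC, and 566, 297 and 369 in miR-22-treated HCC. The groups descended from healthy to untreated to treated without overlap. The step from healthy livers to untreated HCC was small (log2 −0.23, SE 0.17, adjusted p = 0.275), and its sign depended on the scaling, with 0.19 under total counts alone. Rnf43 was the only member called between the HCC groups, 1.58-fold lower with miR-22 (log2 −0.66, SE 0.18, adjusted p = 0.0165). The call was lost without miR-22-treated replicate 3, the lowest liver (−0.48, adjusted p = 0.0591), and without untreated replicate 3 (−0.64, adjusted p = 0.0588). Against healthy livers the treated ones were 1.86-fold lower (log2 −0.89, SE 0.18, adjusted p = 0.00185). Znrf3 (chr11:5226324-5394939, minus strand) had 259, 253 and 239 normalized counts in healthy livers, 219, 259 and 222 in untreated HCC, and 221, 167 and 223 in miR-22-treated HCC. Its untreated livers overlapped both other groups. Its log2 differences were −0.10 (interval −0.40 to 0.20) for untreated HCC against healthy livers and −0.19 (interval −0.49 to 0.11) for treated against untreated HCC. Neither was called, and the first had the opposite sign under total counts alone (0.33).

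Axin2 encodes a scaffold of the complex that degrades β-catenin and is a widely used readout of Wnt signaling (chr11:108811169-108841609, plus strand). It held 185, 149 and 253 normalized counts in healthy livers, 133, 105 and 204 in untreated HCC, and 127, 109 and 98.7 in miR-22-treated HCC. The untreated livers overlapped both other groups and replicate 4 stood well above the other untreated livers, while each treated liver was below each healthy one. Untreated HCC differed from healthy livers by −0.41 on the log2 scale (interval −0.95 to 0.13, adjusted p = 0.179), a value that moved to −0.72 and was called without untreated replicate 4. Under total counts alone it was 0.0024. Treated HCC was 1.76-fold below healthy livers (log2 −0.82, SE 0.26, adjusted p = 0.0249), a call lost under total counts alone (−0.63, adjusted p = 0.0603) and without healthy replicate 3 (−0.60), miR-22-treated replicate 3 (−0.80) or miR-22-treated replicate 4 (−0.74). Treated and untreated HCC differed by −0.41 (adjusted p = 0.273).

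Tbx3 and Sp5 encode transcription factors that are direct targets of Wnt signaling. Tbx3 (chr5:119806298-119822797, plus strand) measured 437, 326 and 309 normalized counts in healthy livers, 245, 289 and 287 in untreated HCC, and 236, 220 and 225 in miR-22-treated HCC. Levels were lower in that order, with no overlap between groups. The first step was −0.38 on the log2 scale (SE 0.14, adjusted p = 0.0341, under the fold threshold), and 0.042 under total counts alone. The second was −0.27 (SE 0.14, adjusted p = 0.195). Between the ends, treated HCC was 1.57-fold below healthy livers (log2 −0.65, SE 0.14, adjusted p = 0.00354), a call lost without healthy replicate 1 (−0.50) and under total counts alone (−0.46). Sp5 (chr2:70305267-70308073, plus strand) had 5 to 23 raw counts a liver. It measured 21.95, 25.7 and 21.3 normalized counts in healthy livers, 15.5, 10.4 and 16.67 in untreated HCC, and 5.55, 6.19 and 12.9 in miR-22-treated HCC. Every HCC liver was below every healthy one. Treated HCC was 2.70-fold below healthy livers (log2 −1.43, SE 0.44, adjusted p = 0.0224), a call lost without healthy replicate 2 (−1.36) or miR-22-treated replicate 2 (−1.23) or 3 (−1.28). The log2 difference was −0.68 between untreated HCC and healthy livers (adjusted p = 0.165) and −0.75 between treated and untreated HCC (adjusted p = 0.25).

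The comparison of miR-22-treated with untreated HCC asks how livers given the miR-22 vector at week 1 differed from livers given the blank vector. The study reports a lower liver-to-body weight ratio with miR-22 in this model. A direct effect of the miRNA and a smaller amount of tumor cannot be told apart here. In this comparison, 1 of the 10 members was called lower, Rnf43, and none higher, beside 5.47% and 8.32% of all tested genes. The 859 genes called lower became 415 without treated replicate 3, 481 without untreated replicate 3 and 565 without untreated replicate 2. Among the members DESeq2 also called 1 lower and none higher, and at an unadjusted p under 0.05 the members' counts were 3 higher and 1 lower. The mean was higher with miR-22 for 4 members, Glul, Oat, Rhbg and Lect2, and lower for the other 6. By the adjusted p alone, Glul and Lect2 were higher and Rnf43 lower, against 24.0% of all tested genes in either direction. The median of the members was −0.18, that of all tested genes 0.00. The groups did not overlap for 3 members (Tbx3, Rnf43 and Lect2), against 39.3% of all tested genes. The signs of Rhbg and Lgr5 turned under an alternative setting.

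Against healthy livers, miR-22-treated HCC had 6 members called lower: Oat, Lgr5, Axin2, Tbx3, Rnf43 and Sp5. None was called higher by edgeR or DESeq2 or at an unadjusted p under 0.05, while 7.05% of all tested genes were called lower and 16.9% higher. All 10 means were below the healthy mean, with a median log2 fold change of −0.73 beside 0.02 over all tested genes. The adjusted p alone was under 0.05 for 8 of the 10 members here and for 5 in untreated HCC against healthy livers, where the shares of all tested genes were 36.5% and 56.2%. The groups did not overlap for 9 members, Rhbg being the exception, against 48.8% of all tested genes. Each group of livers enters 2 of these 3 comparisons, so they are not independent of each other.

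**Figure D2:**
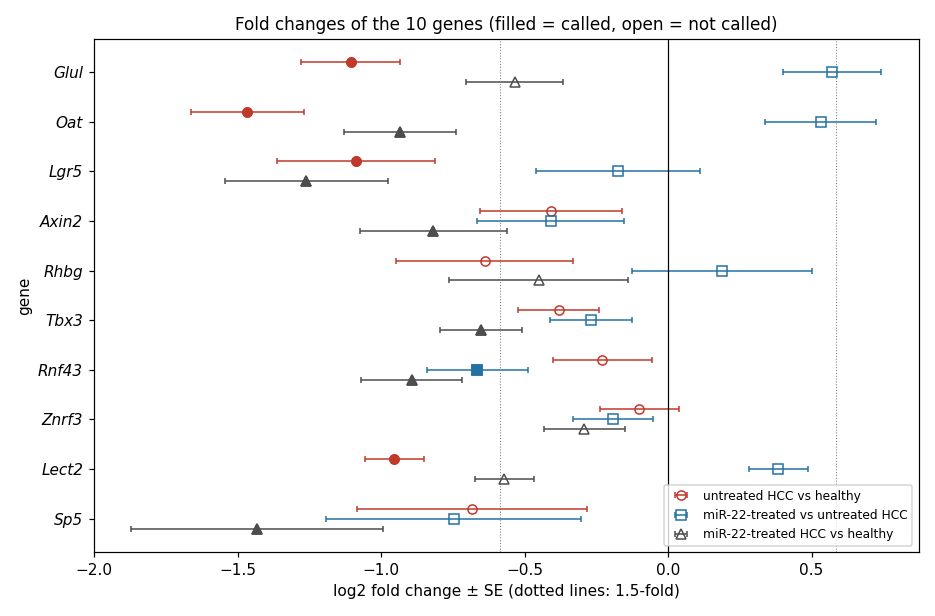
Log2 fold change ± SE of each member in the 3 comparisons, with dotted lines at 1.5-fold. Filled symbols are called. The treated-versus-untreated values (squares) of Glul and Oat, 0.57 and 0.53, lie right of 0 and that of Rnf43, −0.66, lies left, the only filled square.

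All of these values rest on TMM scaling. Scaling by total counts alone moved the median of all tested genes to 0.43 for untreated HCC against healthy livers, to −0.23 for treated against untreated HCC and to 0.21 for treated HCC against healthy livers. Under it, 5986 genes were called higher and 1492 lower in untreated HCC, against 3575 and 2842 with TMM. Between the HCC groups it gave 835 higher and 2164 lower with miR-22, against 1308 and 859, and for treated HCC against healthy livers 3408 and 593, against 2664 and 1108. The falls of Glul (−0.69), Oat (−1.05) and Lgr5 (−0.67) in untreated HCC were called under it too, and that of Lect2 (−0.54) kept its adjusted p but not the fold.

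Among the livers of 1 group, members were often highest or lowest in the same liver. Untreated replicate 4 held the highest value of its group for 6 members (Glul, Lgr5, Axin2, Rhbg, Lect2 and Sp5) and the lowest for none. Among treated livers, replicate 2 was highest for 7 members and replicate 4 lowest for 6, including Glul, Oat, Lgr5, Axin2 and Rhbg. Untreated replicate 4 also had the highest summed hepatocyte markers of its group (1726451 normalized counts, lowest 1487736) and the lowest summed cholangiocyte markers (64481, highest 120547), most of which were counts of Spp1. For the cholangiocyte keratin Krt19, untreated replicate 3 was the lowest (44.3, against 73.2 in replicate 4). Treated replicate 4 had the lowest hepatocyte sum of its group (1904511, highest 2125124) and the highest cholangiocyte sum (52390, lowest 30304). Treated replicate 2, highest for 7 members, and untreated replicate 2, lowest for 6, were each in the middle of their group on both sums. On the summed endothelial markers, treated replicate 2 was the highest of its group (7338) and treated replicate 4 the lowest (5747), and untreated replicate 4 was the highest of its own (5483). Their part in the members' values was not tested. Spread within a group ranged widely among treated livers, from 2.53% of the mean for Lect2 and 3.63% for Tbx3 to 33.9% for Rnf43, 44.8% for Lgr5 and 49.7% for Sp5.

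The gene with the most similar pattern to a member was the one with the smallest root mean square difference of log2 normalized counts over the 9 livers, after each gene was centered on its own mean. For Glul this was Slc25a23, a mitochondrial carrier of adenine nucleotides, at 0.091, with means of 7884 ± 346 in healthy livers, 3404 ± 464 in untreated HCC and 5411 ± 783 in treated HCC. Lect2 was most like Cpt2, a fatty acid oxidation enzyme of mitochondria, at 0.061. Oat was most like Rmdn2 at 0.130 and Rhbg most like Ppp4r4 at 0.190. Lgr5 was most like Notumos at 0.191, a transcript antisense to the Wnt inhibitor Notum. Since the libraries were not strand-specific, reads of Notumos and Notum cannot be told apart where they overlap. Among the feedback genes and factors, Tbx3 was most like the copper transporter Atp7b (0.071), Rnf43 most like Wfs1 (0.150) and Axin2 most like Tspan5 (0.096). For Sp5 the smallest difference was 0.311, from D930048N14Rik. Of the members themselves, Tbx3 and Znrf3 (0.209) and Glul and Lect2 (0.213) were the nearest to each other. All of these are descriptions over the same 9 livers, drawn from 12835 candidate genes (12836 for Sp5).

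The ligands that feed the program come next. Of 23 Wnt ligands and R-spondins, 9 passed the filter, of which 2 were called higher and 3 lower in untreated HCC, and none higher and 1 lower with miR-22 (1 and 1 with DESeq2 and at an unadjusted p under 0.05). In untreated HCC, scaling by total counts alone gave 2 called higher and none lower. Wnt2, a ligand of liver endothelial cells, held 76.8, 88.0 and 115 normalized counts in healthy livers, 44.6, 38.2 and 61.6 in untreated HCC, and 119, 63.1 and 72.0 in miR-22-treated HCC. Every untreated liver lay below every healthy and treated one. It was lower in untreated HCC by a log2 fold change of −0.95 (SE 0.29, adjusted p = 0.0130), which was not called without healthy replicate 3 (−0.78) or untreated replicate 3 (−0.81). The difference of 0.81 with miR-22 missed the threshold (adjusted p = 0.0601), and was called without untreated replicate 4 (1.03). Wnt9b, the second central vein ligand, overlapped between all groups (44.6 ± 7.59, 35.1 ± 7.81 and 44.1 ± 9.43). Rspo3, the R-spondin of the central vein, was 0.72 lower on the log2 scale in untreated HCC (128 ± 24.9 to 77.8 ± 14.8, adjusted p = 0.0123), a call lost without healthy replicate 3 (−0.56) or untreated replicate 3 (−0.60). It was not called with miR-22 (0.35). Under total counts alone none of these 3 differences from healthy livers was called, with −0.54 for Wnt2, −0.30 for Rspo3 and 0.074 for Wnt9b.

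Wnt5a, a ligand best known for signaling without β-catenin, was the only ligand called in both HCC comparisons. It rose by 0.67 on the log2 scale in untreated HCC (153 ± 18.3 to 243 ± 21.1 normalized counts, adjusted p = 0.00220) and fell by 0.92 with miR-22, to 128 ± 16.9 (adjusted p = 0.00138). The first call was lost on the fold threshold without healthy replicate 2 (0.57). Wnt7a was at 0 counts in the healthy livers and had 19 to 20 raw counts in each untreated liver, at least 4.60-fold higher than a floor of 3 counts per library.

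**Figure D3:**
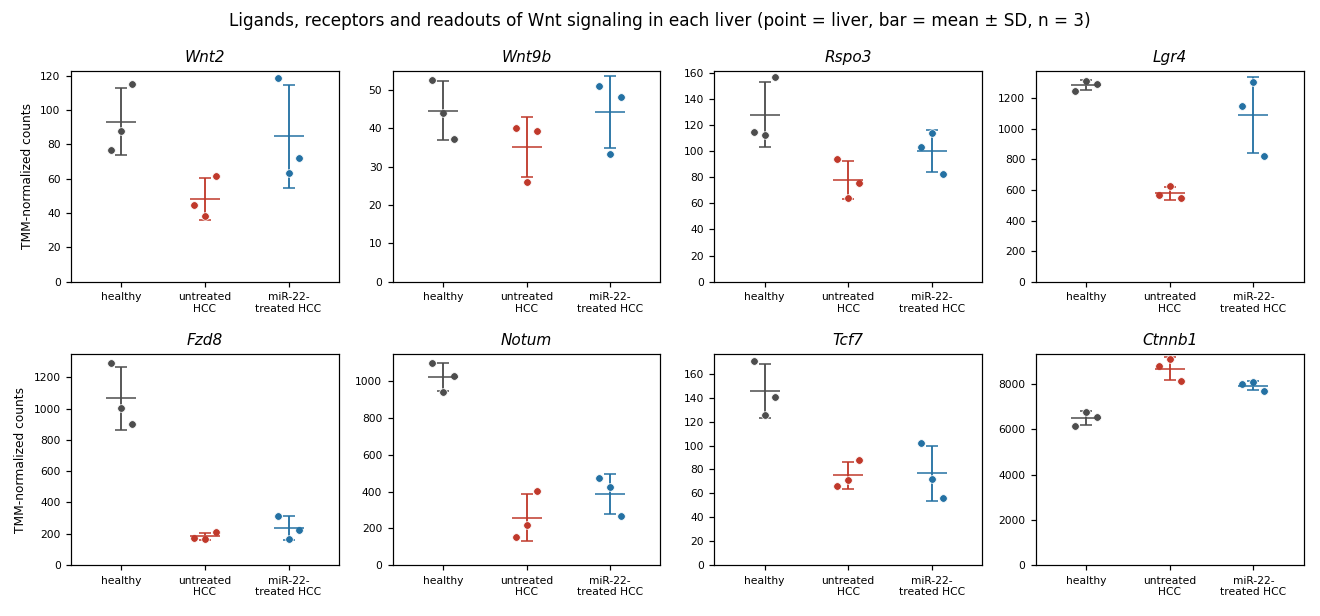
TMM-normalized counts (vertical axis, from 0) of 3 ligands, 2 receptors, the inhibitor Notum, the factor Tcf7 and β-catenin (Ctnnb1) in each liver. Points are livers and bars are the mean ± SD of 3 livers. Lgr4 was lowest in the livers with untreated HCC, and with miR-22 it ranged from 820 to 1305, against 1245 to 1313 in healthy livers, while Fzd8 and Tcf7 stayed low in both HCC groups.

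Of 17 receptors other than Lgr5, 13 passed the filter. In untreated HCC, 3 were called higher and 4 lower, and with miR-22 1 was called higher and 4 lower. The balance in untreated HCC turned under total counts alone, with 7 higher and 3 lower, since Fzd6 (0.80), Lrp5 (0.84), Ror1 (0.85) and Fzd1 (0.68) were called as well, and with miR-22 it was 1 higher and 5 lower. Fzd8 and Fzd4, Frizzled receptors for Wnt ligands, were lower in untreated HCC by −2.53 and −1.21 on the log2 scale, Fzd8 at 1064 ± 203 normalized counts in healthy livers against 183 ± 22.9 in untreated HCC. Lgr4, an R-spondin receptor broadly expressed by hepatocytes, measured 1245, 1313 and 1294 normalized counts in healthy livers, 564, 626 and 546 in untreated HCC, and 1146, 1305 and 820 with miR-22. It was lower in untreated HCC (log2 −1.15, SE 0.14, adjusted p = 1.69e-05) and higher with miR-22 (0.91, SE 0.14, adjusted p = 9.15e-04), whereas Lgr5 was called in the first comparison only. Whether Lgr4 and Lgr5 differed in their response was not tested. Fzd3 rose in untreated HCC (3.59) and fell with miR-22 (−1.12, adjusted p = 0.0271), the second call being lost without any 1 of untreated replicates 2 or 3 or treated replicates 2 or 3 (−0.93 to −1.09). The other receptors called, named after their values were seen, were Fzd5 (0.72, fold threshold missed without healthy replicate 3), Fzd9 and Fzd7 (−0.73, −0.31 under total counts alone) in untreated HCC, and Fzd5 (−0.74), Fzd9 and Ror1 (−0.66) with miR-22. Fzd9 had at most 1 raw count in a healthy liver and 64 to 202 in untreated HCC, at least 30.4-fold above the floor. Its call with miR-22 was lost without any 1 of 7 livers, and that of Ror1 without untreated replicate 3 or miR-22-treated replicate 3 or 4.

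Inside the cell, 14 genes of β-catenin, its degradation complex and Dishevelled were tested, and 1 was called, Amer1 (lower in untreated HCC, −0.69, and −0.27 under total counts alone). That scaling called 4 of the 14 higher and none lower in untreated HCC, namely Dvl3 (0.92), Ctnnb1, Gsk3b (0.78) and Tnks2 (0.93), and Dvl3 (−0.61) lower with miR-22. None of the 14 was called between the HCC groups by edgeR or DESeq2, and 1 was higher and 2 lower at an unadjusted p under 0.05. Ctnnb1, the gene of β-catenin, held 6163, 6768 and 6521 normalized counts in healthy livers, 8787, 9107 and 8123 in untreated HCC, and 7987, 8069 and 7697 with miR-22. Its difference in untreated HCC of 0.42 on the log2 scale (adjusted p = 0.00227) was under the fold threshold and over it (0.85) under total counts alone. Of 7 TCF/LEF factors and coactivators tested, Tcf7 was lower in untreated HCC (146 ± 22.9 to 75.1 ± 11.2 normalized counts, log2 −0.95, adjusted p = 0.00365, −0.53 and not called under total counts alone) and Pygo1 higher (0.99, adjusted p = 0.0199, a call lost without healthy replicate 2 or 3 or untreated replicate 3). Bcl9, a coactivator, was the only one called with miR-22 (−0.76, adjusted p = 0.00369). With scaling by total counts alone, 4 of the 7 were called higher and none lower in untreated HCC, Pygo1, Bcl9 (0.99), Pygo2 (0.93) and Tcf7l1 (0.73), and with miR-22 Pygo2 (−0.76, adjusted p = 0.00231) was called lower beside Bcl9. Tcf7l2, the main TCF of adult liver, differed by −0.25 in untreated HCC and by −0.0046 with miR-22, neither called, and both signs turned under some settings.

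Of 7 Wnt inhibitors tested, 3 were called higher in untreated HCC and 2 lower (4 and 2 under total counts alone). Notum, a secreted enzyme that inactivates Wnt ligands and is itself a pericentral Wnt target, held 1098, 944 and 1029 normalized counts in healthy livers, 155, 221 and 401 in untreated HCC, and 473, 426 and 267 in miR-22-treated HCC. It was lower in untreated HCC by −1.97 (SE 0.28, adjusted p = 6.8e-05), and the HCC groups overlapped (0.57, adjusted p = 0.169). It was called higher with miR-22 only without untreated replicate 4 (1.04). Wif1, a secreted inhibitor, was also lower in untreated HCC (−2.44). With miR-22 it was the only inhibitor called (1.40, adjusted p = 0.0421), a call lost without any 1 of the 6 HCC livers or without healthy replicate 2 or 3 (1.25 to 1.57). It was also lost under total counts alone (1.17, adjusted p = 0.0650), with no filter on low counts (1.40, adjusted p = 0.0615) and with DESeq2 (1.40, adjusted p = 0.0504), which called no inhibitor between the HCC groups. Scaling by total counts alone instead called 1 other inhibitor, which was lower with miR-22. The 3 that were higher were Frzb (2.05), Dkk3 (1.11) and Dkk2, which was at the floor in healthy livers and at least 5.26-fold above it in untreated HCC. Of the genes for Wnt secretion, Wls was higher (0.76) and Porcn lower (−1.06) in untreated HCC, and neither was called with miR-22 by edgeR or DESeq2 or at an unadjusted p under 0.05.

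In a list of 8 other commonly cited Wnt targets, all tested, 5 were called higher and 1 lower in untreated HCC (7 and none under total counts alone). Cd44 (2.55), Tnfrsf19 (2.46), Nkd2 (2.88) and Ephb2 rose, whereas Nkd1, a feedback inhibitor, fell by 0.76 on the log2 scale (−0.34 and not called under total counts alone). Ephb2 held 2.44, 4.89 and 2.13 normalized counts in healthy livers and 79.1, 84.3 and 81.9 in untreated HCC, so that with a healthy mean under the floor its fitted fold change depends on the prior count and is not printed. The call of Myc (0.78, named after its values were seen) was lost without any 1 of 6 livers. With miR-22, Ccnd1 (cyclin D1) fell by 0.99 (adjusted p = 3.31e-04), from 6352 ± 605 to 3197 ± 440.5 normalized counts. Tnfrsf19 (−0.68) and Cd44 (−0.60) were also called lower, though not without untreated replicate 3 (−0.55 and −0.48). The call of Cd44 was lost as well without untreated replicate 2 (−0.53) or miR-22-treated replicate 3 (−0.52) or 4 (−0.60). In this list the median was 1.66 in untreated HCC, opposite in sign to that of the members. Cd44, Tnfrsf19 and Ephb2 are also expressed by cells other than hepatocytes.

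Other pericentral genes were compared next, to place the members within their zone. Of 22 further pericentral genes, 17 were called lower and 3 higher in untreated HCC, with a median log2 fold change of −1.91. Slc1a2 (−2.29), a glutamate transporter, Cyp2a5 (−2.09), a cytochrome P450, Nr1i3 (−2.91), the nuclear receptor CAR, and Cyp27a1 (−1.71), a bile acid synthesis enzyme, fell. The 3 that rose were Gstm3 (3.91), Csad (1.85) and Gstm2 (1.34), of which Csad and Gstm2 were named after their values were seen. With miR-22, 13 of the 22 were called higher and none lower, with a median of 1.02, beside 0 higher and 1 lower of the 10 members. The counts for the 22 were 13 and 1 with DESeq2, and 12 and 2 under total counts alone. Slc1a2 rose by 1.43, Nr1i3 by 1.59 and Cyp27a1 by 1.09. Periportal genes showed similar counts: 16 of 22 were called lower and 1 higher in untreated HCC (median −1.47), and 16 higher and none lower with miR-22 (median 1.06). Under total counts alone, 12 periportal genes were called higher and 1 lower with miR-22. Asl, a urea cycle enzyme, was lower by −2.27 and higher with miR-22 by 1.47, and Pck1, the rate-limiting enzyme of gluconeogenesis, by −2.60 and 2.74. Against healthy livers, miR-22-treated HCC had 16 of the 22 other pericentral genes and 9 of the 22 periportal genes called lower, and 3 and 2 called higher. Differences between these lists and the members were not tested.

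**Figure D4:**
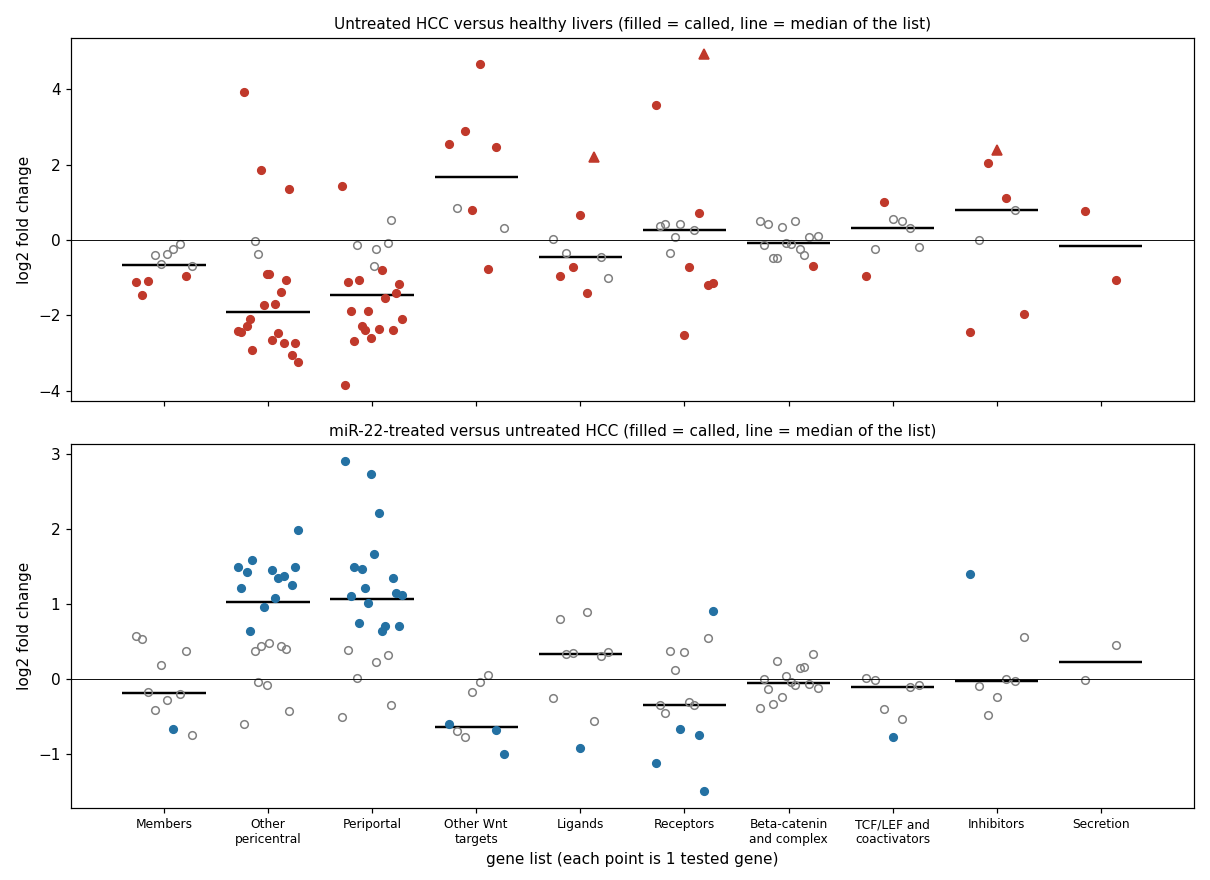
Log2 fold change (vertical axis) of each tested gene by list, for untreated HCC versus healthy livers (top) and miR-22-treated versus untreated HCC (bottom). Filled points are called, lines are list medians and triangles are lower bounds for genes at the floor in healthy livers. The members' medians of −0.66 and −0.18 lie nearer 0 than those of the other pericentral genes, −1.91 and 1.02.

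Markers of cell types were also compared between the groups. All 5 hepatocyte markers were called in untreated HCC, 4 lower and 1 higher, and their summed level was 2517123 to 2704128 normalized counts in the healthy group, 1487736 to 1726451 in the untreated group and 1904511 to 2125124 with miR-22. Albumin (Alb) made up most of this sum, with means of 1968155, 890472 and 1303934, and was not called with miR-22 (0.55, adjusted p = 0.0635). With miR-22, 1 of the 5 was called higher, Apoa1 (0.77), and none was called under total counts alone. Of 7 endothelial markers, 4 were called lower in untreated HCC and 2 higher with miR-22, and the sums were 6875 to 8651, 4271 to 5483 and 5747 to 7338. The 4 were Stab2, Kdr, Clec4g and Oit3, whereas Pecam1 (0.13), Cdh5 (0.06) and Lyve1 (0.63) were not called, so the lower sums rest on part of the list. Under total counts alone only Clec4g was called lower in untreated HCC and Lyve1 was called higher (1.05), with Oit3 at −0.49, Stab2 at −0.35 and Kdr at −0.58, and with miR-22 the call of Oit3 was lost (0.41). Of the hepatocyte markers, 2 were called lower and 1 higher in untreated HCC under that scaling. Of 5 cholangiocyte markers, 4 were called higher in untreated HCC and 3 lower with miR-22, and the sums were 570 to 812, 64481 to 120547 and 30304 to 52390. Most of that sum was a single gene, Spp1 (460 to 620, 62830 to 117900 and 29628 to 51255), and Krt19 was not called in untreated HCC (41.8 ± 18.8 in healthy livers, 76.7 ± 34.4 in untreated HCC, adjusted p = 0.151) or with miR-22 (74.9 ± 49.4, adjusted p = 0.991). Under total counts alone all 5 cholangiocyte markers, Krt19 included, were called higher in untreated HCC, and 4 were called lower with miR-22. None of the markers of these 3 cell types was at 0 in any liver. Their part in the levels of the members and of the endothelial ligands was not tested.

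Of the members, 5 overlap another tested gene in the annotation: Glul (Teddm2, opposite strand), Lect2 (Fbxl21, opposite), Tbx3 (Tbx3os1, opposite), Oat (Fgfr2, same strand) and Rnf43 (1110028F11Rik, same strand). Without strand information, reads from the overlapping stretches cannot be assigned with certainty. Replicates are livers that the titles number separately. The p-values set differences between groups against the spread between livers, which is estimated in part from all tested genes.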

How the data were processed

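Whole-liver RNA of 9 mice was sequenced by the study from libraries that were not strand-specific. Per the labels and the study's methods, read quality was checked with FastQC 0.11.7, reads were quantified with Salmon on GRCm39, summed per gene with tximport and analyzed with DESeq2 1.18. The counts per gene were deposited by the authors as whole numbers, not normalized. A second deposited table, the same values after normalization, was not used here.

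Groups came from the titles and treatments in the labels. The groups were compared with edgeR 4.0.16 under R 4.3.3 (TMM, filterByExpr, two-sided quasi-likelihood F test, 1 fit of 3 groups, no covariates, Benjamini-Hochberg adjustment over 15717 genes), and the script was tested on simulated data. The alternatives tried were upper-quartile factors, total counts alone, the size factors of DESeq2 1.42.0, its Wald test, no filter on low counts, at least 10 counts in every library, the replicate number as a block, only the groups compared, glmTreat, no fold threshold, and each liver left out in turn. The floor was 3 counts, and confidence intervals were 95%. Chi-square values of 6.13 to 28.4 per degree of freedom separated libraries of the same group, so none was counted as a duplicate. Pooled over genes, counting error was therefore smaller than the spread between livers. This does not hold for each gene, and it was not checked for members with few counts, such as Sp5 and Rhbg.

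The members and lists were chosen with earlier results of these data known, and the lists were written by hand. From each Wnt and zonation list, up to 4 genes with the smallest p in untreated HCC versus healthy livers and up to 2 in miR-22-treated versus untreated HCC could be named, besides Wnt2, Wnt9b, Rspo3, Ctnnb1, Tcf7l2 and the label checks. For each member the most similar gene with at least 10 counts in every library was named as well, except that the match of Znrf3 is not reported here. Of 177 listed symbols, 1 was matched through a synonym. Coordinates and 3′ ends came from GENCODE M39 on GRCm39, and promoters and the miRNA from RefSeq on GRCm38.p6. Promoters of Lgr5, Rhbg, Tbx3 and Znrf3 were not analysed here. Figures were drawn with matplotlib.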

Additional observations from a re-analysis of the deposited data

How the results depend on the processing

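Across 20 alternative settings, 527 of 577 log2 fold changes of the members kept their direction and their side of the thresholds, 23 fell short of a threshold, 20 passed one and 7 turned sign, none of the 7 called. The cause of these changes was not tested, except that fewer genes or livers enter some fits. Only values called in the main fit could fall short, and these were 4, 1 and 6 members in the 3 comparisons. Many of the 527 were therefore uncalled in both fits. Under total counts alone the values that turned in untreated HCC against healthy livers were Axin2 0.0024, Rnf43 0.19, Tbx3 0.042 and Znrf3 0.33. Between the HCC groups they were Rhbg −0.043, Rhbg −0.0050 without untreated replicate 2 (−0.0050 to 0.46 over the livers left out) and Lgr5 0.14 without miR-22-treated replicate 4 (−0.54 to 0.14). Tested against the 1.5-fold threshold itself (glmTreat), 468 genes were called between the HCC groups and 2010 in treated HCC against healthy livers, and 0 and 1 (Lgr5) of the members. With no fold threshold the counts were 3777 and 5732 genes, and 3 members between the HCC groups. Leaving out 1 liver gave 1433 (without miR-22-treated replicate 3) to 2660 genes between the HCC groups and 0 to 3 members. The 0 was met without miR-22-treated or untreated replicate 3. Replicate numbers did not pair the livers: correlations of deviations were −0.22 to −0.10 for the same number and −0.024 to 0.13 for others. A replicate block fitted on the HCC livers alone called 958 genes and 0 members, with Rnf43 at −0.72 (adjusted p = 0.0774). In the fit of all groups the block called 1745 genes and 1 member there. Against healthy livers the block left Lgr5 uncalled in untreated (adjusted p = 0.0769) and treated HCC (0.0521), and Axin2 (0.0714) and Tbx3 (−0.50) in treated HCC, while Lect2 was called (−0.60). Sp5 and Rhbg had among the fewest counts, and Sp5 was not tested with at least 10 counts in every library.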

Other observations

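Markers of other liver cells were also counted in these livers. Of 6 stellate cell and fibroblast markers, Col1a1 (5.06), Col3a1 (3.21) and Pdgfrb (1.41) were called higher on the log2 scale in untreated HCC, relative to healthy livers, and Lrat (−1.50) and Dcn (−0.61) lower. With miR-22, Lrat (1.10) and Dcn (0.71) were called higher and Col1a1 (−0.94) lower than in untreated HCC. Under total counts alone Dcn was called in neither comparison (−0.19 and 0.47), and Pdgfrb (−0.67) and Col3a1 (−0.66) were called lower with miR-22 as well. With upper-quartile factors Dcn missed the fold threshold in untreated HCC (−0.56). Of 5 macrophage markers, 1 was called in untreated HCC, Cd68 (0.68), and none with miR-22 by edgeR or DESeq2 (2 higher at an unadjusted p under 0.05). Both tested neutrophil markers, S100a8 (3.30) and S100a9 (3.51), were higher in untreated HCC and neither was called with miR-22 by edgeR or DESeq2 or at an unadjusted p under 0.05. The third, Ly6g, did not pass the filter. None of the 4 lymphocyte markers was called in either comparison by edgeR or DESeq2, or at an unadjusted p under 0.05. All of these genes were named after their values were seen.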
